A study of Mus musculus with 6 samples.

Results

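The 10 genes described here are markers of vascular endothelium, the cell layer that lines blood vessels: Cldn5, Pecam1, Cdh5, Egfl7, Kdr, Flt1, Tek, Tie1, Emcn and Vwf. They were chosen by name, as cell type markers, and all 10 are among the 16415 genes of the deposited table of mouse trigeminal ganglion, the sensory ganglion of the head. The study holds 6 bulk mRNA libraries of wild-type (WT) mice, 3 with the treatment label NC-up and 3 with the treatment label SETDB2-up. Strain, age, sex, the meaning of the 2 treatment names, the way the treatment was given and whether each library came from a separate animal are not stated in the labels. A p-value here therefore sets the difference between groups against how far these libraries differ within a group, which may be technical variation. Markers of ganglion cells were read beside the labelled tissue. All 12 sensory neuron markers were in the table, with summed values of 462007 to 488576 per library. So were all 8 satellite glia markers (97536 to 116441). These lists do not tell the trigeminal ganglion from other sensory ganglia, and pituitary transcripts were present too. Recovered reads over the listed genes came to between 19334997 and 23501386 per library. SETDB2-up libraries 1 and 2 stand apart by liver transcripts, described with the cell type markers, and the calls that were lost without both are named there.

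Endothelial cells seal the vessel wall by tight junctions built of claudins and by adherens junctions built of VE-cadherin. They read growth signals through 2 families of receptor tyrosine kinases, the VEGF receptors and the Tie receptors, which bind vascular endothelial growth factors and angiopoietins. In sensory ganglia such vessels run among the neurons with their satellite glia, and a barrier around the vessels is less tight than that of the brain. In bulk tissue, fewer endothelial cells and less RNA per endothelial cell cannot be told apart.

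In the SETDB2-up libraries 2 of the 10 genes were lower beyond the spread between libraries: Cldn5, the claudin of endothelial tight junctions, fell by 24.3%, and Egfl7, a secreted protein of endothelial cells, fell by 20.6%. The other 8 did not pass the test, and no member rose. Of all 16387 genes tested, 16.4% changed, 8.71% lower and 7.71% higher (limma, Benjamini-Hochberg adjusted p under 0.05; edgeR called 8.99% lower). With no member risen, limma gave 0 members higher at an unadjusted p under 0.05, and edgeR, DESeq2 and limma-voom each called 0 higher and 2 lower. Fold changes in these libraries followed the GC content of the transcripts, and after a correction for it neither fall passed (Cldn5 log2 fold change -0.16, adjusted p = 0.263; Egfl7 -0.17, adjusted p = 0.251).

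The start regions of the 2 genes that fell are shown with that of Flt1, the member whose 3 SETDB2-up values all lay above NC-up. Each is the 300-base window from 250 bases before to 50 bases after a RefSeq start (GRCm38.p6), written 5′ to 3′ on the gene's strand. Capitals mark AGGAAG, the core bound by ETS factors, and GGGCGG, the GC box, each on either strand. Cldn5 is on the plus strand at chr16:18776597-18776896, Egfl7 on the plus strand at chr2:26580833-26581132 and Flt1 on the minus strand at chr5:147725962-147726261.
Cldn5: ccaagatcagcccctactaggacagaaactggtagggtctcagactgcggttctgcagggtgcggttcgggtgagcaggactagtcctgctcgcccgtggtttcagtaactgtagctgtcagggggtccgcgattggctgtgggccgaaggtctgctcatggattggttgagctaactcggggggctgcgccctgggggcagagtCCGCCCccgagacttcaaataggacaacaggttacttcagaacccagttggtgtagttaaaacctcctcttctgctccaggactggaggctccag
Egfl7: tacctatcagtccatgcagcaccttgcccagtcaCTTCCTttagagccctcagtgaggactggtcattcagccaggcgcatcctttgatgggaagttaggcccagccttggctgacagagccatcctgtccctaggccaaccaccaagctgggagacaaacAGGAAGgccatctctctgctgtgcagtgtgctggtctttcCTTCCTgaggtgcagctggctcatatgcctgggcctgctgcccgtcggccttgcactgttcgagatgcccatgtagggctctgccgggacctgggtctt
Flt1: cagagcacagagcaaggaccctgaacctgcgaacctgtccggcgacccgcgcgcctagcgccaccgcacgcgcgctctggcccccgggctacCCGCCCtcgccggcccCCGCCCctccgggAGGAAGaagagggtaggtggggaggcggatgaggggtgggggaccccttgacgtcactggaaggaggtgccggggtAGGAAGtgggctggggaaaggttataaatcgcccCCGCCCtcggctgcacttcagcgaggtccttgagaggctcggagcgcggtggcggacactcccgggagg
The Cldn5 window held 0 AGGAAG and 1 GGGCGG, the printed Egfl7 window 3 and 0, and the Flt1 window 2 and 3. Egfl7 has 3 windows, of which the printed one lies at the gene start given in the table; the second held 2 AGGAAG and 0 GGGCGG, and the third 0 and 4. RefSeq gave 9 windows for 7 members and no window was used for Pecam1, Cdh5 or Vwf. AGGAAG was in 5 of the 9 windows, against 33.3% of 16519 windows of listed genes. GGGCGG was in 4 of 9 (57.1% of all), and CACCC, a motif bound by Kruppel-like factors such as Klf4, in 6 of 9 (63.5% of all). CCACCC, which overlaps CACCC, was in 4 of 9 (37.1%). The ETS form CCGGAAGT was in 0 (6.56%), the GATA motifs TGATAA and AGATAA in 2 (4.83%) and 1 (6.80%), the SOX motif ACAATG in 0 (7.98%), the E-box CAGATG in 2 (12.6%) and TATAAA in 1 (7.85%). These matches are a description of the windows; 9 windows are too few for shares to be compared.

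Egfl7 also carries within its span, on the same strand, the endothelial microRNA miR-126a, at chr2:26591402-26591423. Its mature 3p strand is shown because it is made from the same locus, with its seed (bases 2 to 8) in capitals, from RefSeq (GRCm38.p6). MicroRNA levels were not analysed here.
miR-126a-3p: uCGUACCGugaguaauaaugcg

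Junction genes were described first. Cldn5 (gene 12741, chromosome 16, 18776847 to 18778262, plus strand, GRCm38 as in the table) had 759.6, 773 and 752 normalised reads in NC-up libraries 1 to 3, while SETDB2-up libraries 1 to 3 had 573, 551 and 606. Every SETDB2-up value was thus below every NC-up value, and the gap of the groups was wider than the spread within either. The means were 761 ± 10.7 and 577 ± 27.5 (SD, n = 3 each), which is a log2 fold change of -0.40 (SE 0.08, adjusted p = 0.00237 by limma, 95% interval -0.57 to -0.23). The call held in 16 of 20 alternative fits and was lost after the 3 fits with a GC correction and without SETDB2-up libraries 1 and 2 together (log2 fold change -0.33, adjusted p = 0.160, with 1 library left in the group).

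Cdh5, VE-cadherin (gene 12562, chromosome 8, 104101613 to 104144504), also had groups that did not overlap, at 578, 564 and 528 against 511, 475 and 487. It did not pass the test, with a log2 fold change of -0.18 (SE 0.09, adjusted p = 0.170 by limma, 95% interval -0.36 to 0.0026). Pecam1, the adhesion molecule CD31 of endothelial contacts that platelets and some leukocytes carry too (gene 18613, chromosome 11, 106654213 to 106715281), had 366.5, 411 and 352 against 405, 367.2 and 454. Its groups overlapped, and SETDB2-up library 3 was the highest of the 6. The log2 fold change was 0.12 (SE 0.11, adjusted p = 0.501 by limma, 95% interval -0.11 to 0.34).

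Within a library, the ratio of Cldn5 to Pecam1 was 2.07, 1.88 and 2.13 in NC-up and 1.42 ± 0.0837 (SD, n = 3) in SETDB2-up. That of Cldn5 to Cdh5 was 1.31, 1.37 and 1.42 against 1.12, 1.16 and 1.24. The groups did not overlap for either ratio, so Cldn5 stood lower against these other 2 junction genes in every SETDB2-up library. Both had an exact two-sided permutation p of 0.1, the smallest that 3 against 3 libraries allow (0.133 adjusted over 4 such ratios). Both ratios use the same Cldn5 values as the fall above, so they are not a separate test of it. The 3 genes differ in GC content (60.5%, 50.2% and 52.2%). After the GC correction described below, the log2 fold changes of Cldn5 and Cdh5 lay close together (-0.16 and -0.15), while that of Pecam1 was 0.11. The ratios were not recomputed with that correction, and the part of GC in them was not tested.

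**Figure D1:**
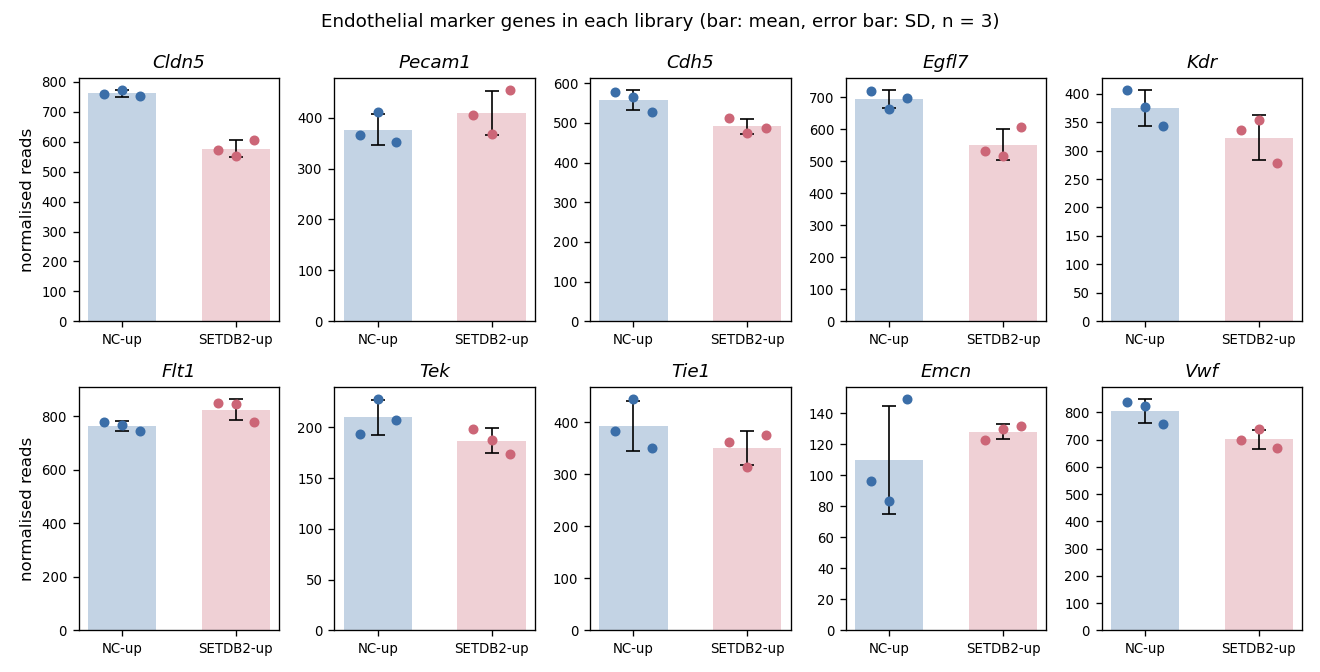
Normalised reads (vertical axes from 0) of the 10 endothelial markers in the 3 NC-up (blue) and 3 SETDB2-up (red) libraries, drawn as points from library 1 at the left to 3 at the right of each bar. Bars are means and error bars SD. Cldn5 sits between 752 and 773 in NC-up and between 551 and 606 in SETDB2-up, and Flt1 is the one gene with all SETDB2-up values above NC-up.

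Among the secreted proteins, Egfl7 (gene 353156, chromosome 2, 26581083 to 26592682), which is deposited in the matrix around growing vessels, had 720.4, 664 and 697 in NC-up, beside 531, 516 and 607 in SETDB2-up. The groups did not overlap, and SETDB2-up library 3 stood nearest to NC-up. The means were 694 ± 28.5 and 551 ± 48.8 (SD, n = 3 each), which is a log2 fold change of -0.33 (SE 0.09, adjusted p = 0.0136 by limma, 95% interval -0.52 to -0.15). This call was lost in the fits with a GC correction, without SETDB2-up library 1 (log2 fold change -0.31, adjusted p = 0.0817), without library 2 (-0.29, adjusted p = 0.0766) and without both (-0.19, adjusted p = 0.538), over a range of adjusted p from 0.00279 to 0.538 in 20 alternatives.

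Vwf, von Willebrand factor, the carrier of factor VIII that tethers platelets and is made by endothelium and megakaryocytes (gene 22371, chromosome 6, 125552948 to 125686679), had 838, 823 and 756 against 697, 738 and 667. All 3 SETDB2-up values lay below NC-up, with 738 and 756 as the nearest values. It did not pass (log2 fold change -0.20, SE 0.08, adjusted p = 0.0947 by limma, 95% interval -0.37 to -0.03). Emcn, the sialomucin endomucin of veins and capillaries (gene 59308, chromosome 3, 137341062 to 137431069), was the member with the fewest reads and, relative to its mean, the most variable in NC-up, at 96.4, 83.3 and 149 against 123, 130.2 and 132. NC-up library 3 was the highest and NC-up library 2 the lowest of all 6, and the log2 fold change of 0.27 (SE 0.20, adjusted p = 0.382 by limma) had a 95% interval of -0.14 to 0.68, the widest of the members.

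Neither VEGF receptor passed the test. Kdr, VEGFR2, the main signalling receptor for VEGF-A (gene 16542, chromosome 5, 75932827 to 75979072), had 406, 376 and 343 against 336, 353 and 278, with groups that overlapped and a log2 fold change of -0.22 (SE 0.11, adjusted p = 0.199 by limma, 95% interval -0.46 to 0.02). Flt1, VEGFR1, which binds VEGF-A tightly and can act as a decoy (gene 14254, chromosome 5, 147561604 to 147726438), had 776.5, 768 and 743 against 847, 846 and 777.2. Its nearest values were less than 1 read apart, and the log2 fold change of 0.11 did not pass (SE 0.08, adjusted p = 0.355 by limma, 95% interval -0.05 to 0.27). Flt1 reads per Kdr read were 1.91, 2.04 and 2.16 in NC-up, beside 2.52, 2.40 and 2.80 in SETDB2-up, without overlap (exact two-sided permutation p = 0.1, the smallest possible; 0.133 adjusted over 4 ratios). Their GC contents are 50.5% and 49.4%, and the part of GC in this ratio was not tested.

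The Tie receptors both had overlapping groups. Tek, which encodes Tie2, the receptor of angiopoietins (gene 21687, chromosome 4, 94739086 to 94874976), had 194, 228 and 207 against 199, 187 and 174 (log2 fold change -0.17, SE 0.13, adjusted p = 0.421 by limma, 95% interval -0.44 to 0.11). Tie1, its partner without a well-established ligand (gene 21846, chromosome 4, 118471191 to 118489849), had 382, 444 and 350.4 against 361, 313 and 375 (log2 fold change -0.16, SE 0.11, adjusted p = 0.352 by limma, 95% interval -0.40 to 0.07). Tie1 reads per Tek read were 1.87 ± 0.16 in NC-up and 1.88 ± 0.25 in SETDB2-up (SD, n = 3 each), and the groups overlapped. After the GC correction the value of Tie1 was 0.01, so that its sign turned, while that of Tek was -0.25 (adjusted p = 0.293).

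Counted together, 4 members (Cldn5, Egfl7, Cdh5 and Vwf) had every SETDB2-up value below every NC-up value, as did 16.4% of genes tested, and 1 (Flt1) had every value above, as did 16.8%. The median log2 fold change of the 10 was -0.17, beside 0.00 over all genes tested. Highest values lay mostly in NC-up, with 4 members at their highest in library 1, 3 in library 2 and 1 in library 3. Lowest values were spread over 4 libraries: 4 members had theirs in SETDB2-up library 2, 3 in SETDB2-up library 3, 2 in NC-up library 3 and 1 in NC-up library 2. The summed value of the 10 genes was 5118, 5134 and 4879 in NC-up, beside 4583, 4477 and 4557 in SETDB2-up. The groups did not overlap, and the sum includes the 2 genes that fell.

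Levels of different genes were compared per kilobase of their longest annotated transcript. In NC-up the order was Cldn5 (538 ± 7.54 normalised reads per kb, SD, n = 3), Egfl7 (372 ± 15.3), Cdh5 (139 ± 6.47), Flt1 (111 ± 2.55), Pecam1 (109 ± 8.89), Tie1 (92.7 ± 11.3), Vwf (91.2 ± 4.92), Kdr (63.3 ± 5.28), Tek (45.1 ± 3.69) and Emcn (31.1 ± 9.92). Cldn5, Egfl7 and Cdh5 were each clear of the next gene in all 3 libraries. The NC-up values of Flt1 and Pecam1, of Pecam1 and Tie1, of Tie1 and Vwf, and of Tek and Emcn overlapped, so these neighbours cannot be ranked. In SETDB2-up, Cldn5 (407 ± 19.4) and Egfl7 (296 ± 26.2) still stood first. The 2 members that fell were thus the 2 most abundant per length, and those with the shortest transcripts (1416 and 1865 bases).

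Base composition moved with these fold changes. Genes were divided into 10 equal classes by transcript GC. Cldn5 (60.5% GC) is in the highest class, where 530 of 1552 genes fell and 5 rose and the median log2 fold change was -0.23. Egfl7, Tie1 and Vwf (57.1%, 57.6% and 56.5%) are in the class below, where 17.6% fell and 0.258% rose. Emcn (40.7%) is in the lowest class, where 26.9% rose and 1.48% fell. The other 5 members, with 47.1% to 52.2% GC, lie in classes with medians between -0.04 and 0.08.

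With each library corrected for its GC trend, 843 genes passed (276 higher and 567 lower, against 1263 and 1427 before), and 0 of the members did, beside 5.43% of genes in either direction (3.65% lower and 1.78% higher). At an unadjusted p under 0.05 limma then gave 2 members lower, Egfl7 and Kdr. The correction moved Cldn5 from -0.40 to -0.16 (95% interval -0.32 to 0.0020), Egfl7 from -0.33 to -0.17 (-0.35 to -0.0015), Tie1 from -0.16 to 0.01, Vwf from -0.20 to -0.05 and Emcn from 0.27 to 0.08. It moved Cdh5, Kdr, Flt1 and Pecam1 little, to -0.15, -0.25, 0.11 and 0.11. The GC trend and the treatment cannot be told apart in these libraries.

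**Figure D2:**
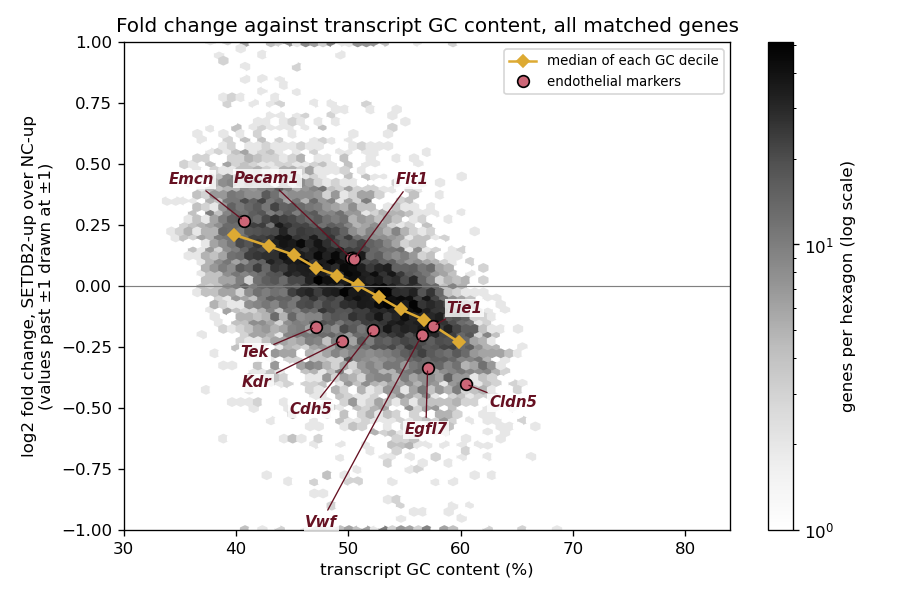
Log2 fold change of SETDB2-up over NC-up (vertical axis, values past 1 drawn at the edge) against transcript GC content in percent (horizontal axis) for all tested genes with a matched transcript, as grey hexagons shaded by gene number on a log scale. Yellow diamonds are the medians of 10 equal GC classes, falling from 0.21 to -0.23, and red points are the 10 endothelial markers, with Emcn near the upper end of that trend and Cldn5 at its lower end.

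**Figure D3:**
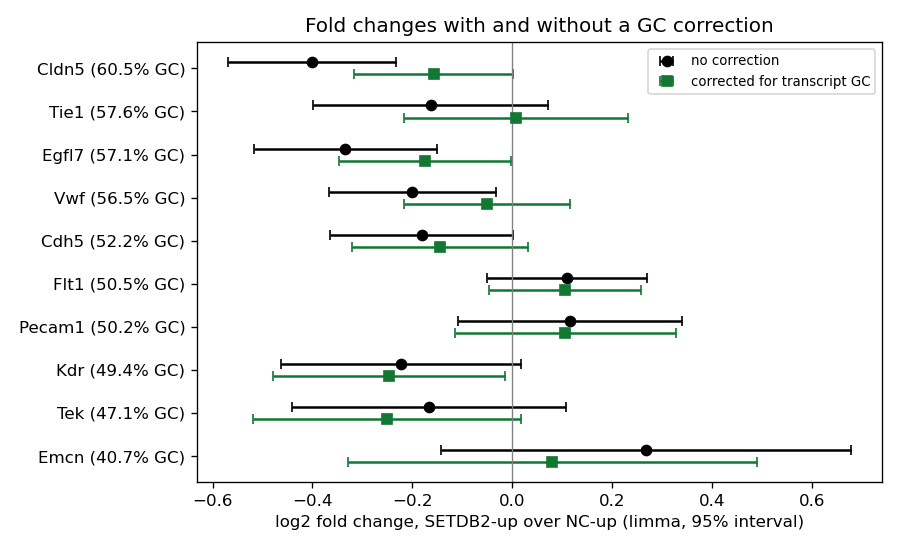
Log2 fold change (horizontal axis) of each endothelial marker with its 95% limma interval, before (black circles) and after (green squares) the GC correction, ordered from the lowest transcript GC at the bottom to the highest at the top. Cldn5 moves from -0.40 to -0.16 and Tie1 from -0.16 to 0.01, while Flt1 and Pecam1 stay at about 0.11.

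Other genes of endothelium were read from lists chosen for their biology. The counts for these and the cell type lists stand beside 8.71% of all genes tested lower and 7.71% higher (limma). Of 25 other endothelial genes 0 passed in limma (1 higher and 2 lower at an unadjusted p under 0.05), and edgeR, DESeq2 and limma-voom called 0. Their median log2 fold change was -0.04, and their summed value was 7571 to 7960.4 in NC-up and 7565 to 7887 in SETDB2-up, with overlap. The most abundant of them were Adgrf5, an adhesion receptor (894 ± 93.9 against 879.6 ± 84.4; log2 fold change -0.02), and Palmd, palmdelphin (812 ± 28.6 against 889 ± 53.7; 0.13).

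Of 8 VEGF ligands and co-receptors 2 passed, both of them ligands and both lower. Vegfb, a ligand of Flt1, had 1114, 1132 and 1193 against 688, 788 and 764 (log2 fold change -0.62, SE 0.08, adjusted p = 3.41e-05 by limma), without overlap. Vegfa, the ligand of Kdr and Flt1, had 1574, 1426 and 1259 against 1129.5, 1135 and 1148 (-0.31, SE 0.08, adjusted p = 0.00966 by limma). Both kept their calls after the GC correction (-0.32, adjusted p = 0.0149, and -0.31, adjusted p = 0.0188). The Vegfa call was lost without NC-up library 1, the highest of its group, and without SETDB2-up library 1, alone or with library 2. VEGF ligands are made by many cell types besides endothelium.

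Of 8 angiopoietins and Tie regulators 0 passed in limma, 0 at an unadjusted p under 0.05 and 0 in the other 3 tools. Angpt2, the context-dependent antagonist of Tie2, had 637 ± 76.6 against 601 ± 34.4, and Angptl4, an inhibitor of lipoprotein lipase, 595 ± 34.4 against 525 ± 52.7 (SD, n = 3 each). Of 18 junction partners 2 rose and 2 fell. Cldn1, a claudin of epithelia and perineurium, rose from 149, 159 and 132 to 334, 268 and 242 (log2 fold change 0.92, SE 0.14, adjusted p = 0.00032 by limma; 0.71 after the GC correction, adjusted p = 0.00417; 0.72 without SETDB2-up libraries 1 and 2, where the call was lost at adjusted p = 0.109). It was thus higher in every SETDB2-up library, while Cldn5 was lower in every one. The 2 lie at opposite ends of the GC trend, Cldn1 (39.0% GC) in the lowest class and Cldn5 (60.5%) in the highest. The fall of Cldn5 did not pass after the GC correction (adjusted p = 0.263 by limma). The part of GC in this contrast was not tested. The scaffold Tjp1 (ZO-1) rose by 0.20, Jup (plakoglobin) fell by 0.21 and Cldn19, a claudin of Schwann cells, fell by 0.18 on the log2 scale, and none of these 3 passed after the GC correction.

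Barrier transporters held 2 that rose and 1 that fell among 15. Slco1a4, an organic anion transporter of brain endothelium, had 368, 325 and 307 against 465, 488 and 416 (log2 fold change 0.45, SE 0.11, adjusted p = 0.00659 by limma; 0.26 after the GC correction, adjusted p = 0.139; 0.32 without SETDB2-up libraries 1 and 2, adjusted p = 0.403). The efflux pump Abcg2 rose by 0.28 and the amino acid transporter Slc7a5 fell by 0.25, and each lost its call in at least 10 of 20 alternatives. Of 8 measured genes of fenestrated and peripheral capillaries 1 fell: Plvap, the protein of fenestral diaphragms, with 162, 196 and 139 against 63.6, 86.5 and 119.6 (-0.91, SE 0.21, adjusted p = 0.00571 by limma; -0.66 after the GC correction, adjusted p = 0.055), a call also lost without SETDB2-up library 1 and without libraries 1 and 2 together. Plvap lies under Gtpbp3, which has at least 4 times its reads on the opposite strand, so its reads are uncertain. Aqp1, the water channel (3789 ± 135 against 3840 ± 219), and Rgcc (924 ± 50.1 against 819.8 ± 56.7; log2 fold change -0.17, limma adjusted p = 0.144) did not pass.

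Of 15 measured arterial and Notch genes 3 fell. Notch1 had 1576, 1565 and 1624 against 1210.3, 1179 and 1103 (-0.45, SE 0.07, adjusted p = 0.000215 by limma), and passed after the GC correction (-0.29, adjusted p = 0.0181). The Notch ligand Jag2 fell by 0.31 and the semaphorin Sema3g by 0.21 on the log2 scale, and after the correction stood at -0.03 and -0.07. Of 9 measured venous and adhesion genes 1 fell, Nr2f2 (COUP-TFII), the transcription factor of venous identity, with 1769, 1633 and 1631 against 1449.7, 1424 and 1263 (-0.28, SE 0.07, adjusted p = 0.00979 by limma; -0.41 after the GC correction, adjusted p = 0.000711). Ackr1, the chemokine receptor of venules, was at 1194 ± 62.9 and 1191 ± 42.2, a log2 fold change of 0.00, and Ephb4, the ephrin receptor of veins, at 397, 385 and 352 against 366, 355 and 364, which did not pass. Notch1, Nr2f2, Cldn19, Angpt2 and Ackr1 each overlap another listed gene, and Notch1 and Nr2f2 are also expressed outside endothelium. Ackr1 alone among these overlaps a gene on its own strand, Cadm3, which strand-specific reads do not separate. Its values may therefore hold reads of both genes.

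Transcription factors of endothelium fell in 4 of 21 cases, where 8.71% of all genes tested fell. They were Klf2, Klf4, Foxc1 and Nr2f2, the last being the gene counted in the venous list above. Klf2, the shear-stress factor of endothelium, had 561, 409 and 404 against 248, 278 and 349.8 (log2 fold change -0.65, SE 0.14, adjusted p = 0.0037 by limma; -0.37 after the GC correction, adjusted p = 0.116, the call also being lost without SETDB2-up libraries 1 and 2, adjusted p = 0.334). Klf4, its relative, which the series title names, had 216, 203 and 175 against 118, 147 and 101 (-0.71, SE 0.16, adjusted p = 0.00612 by limma). Foxc1, a forkhead factor of mesenchyme and vessels, had 361, 397 and 383 against 247, 256 and 237 (-0.62, SE 0.11, adjusted p = 0.000685 by limma). Klf4 and Foxc1 passed after the GC correction too (adjusted p = 0.035 and 0.0105 by limma). These 4, picked because they passed, had every SETDB2-up value below NC-up. So did 8 of the 21 and 16.4% of all genes tested. Among 8 measured haemostasis and endothelin genes Ednrb rose by 0.19 and Ece1, the endothelin-converting enzyme, fell by 0.21, and neither passed after the GC correction (adjusted p = 0.671 and 0.384), where Plat, tissue plasminogen activator, was the 1 that passed (-0.41, adjusted p = 0.0232).

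**Figure D4:**
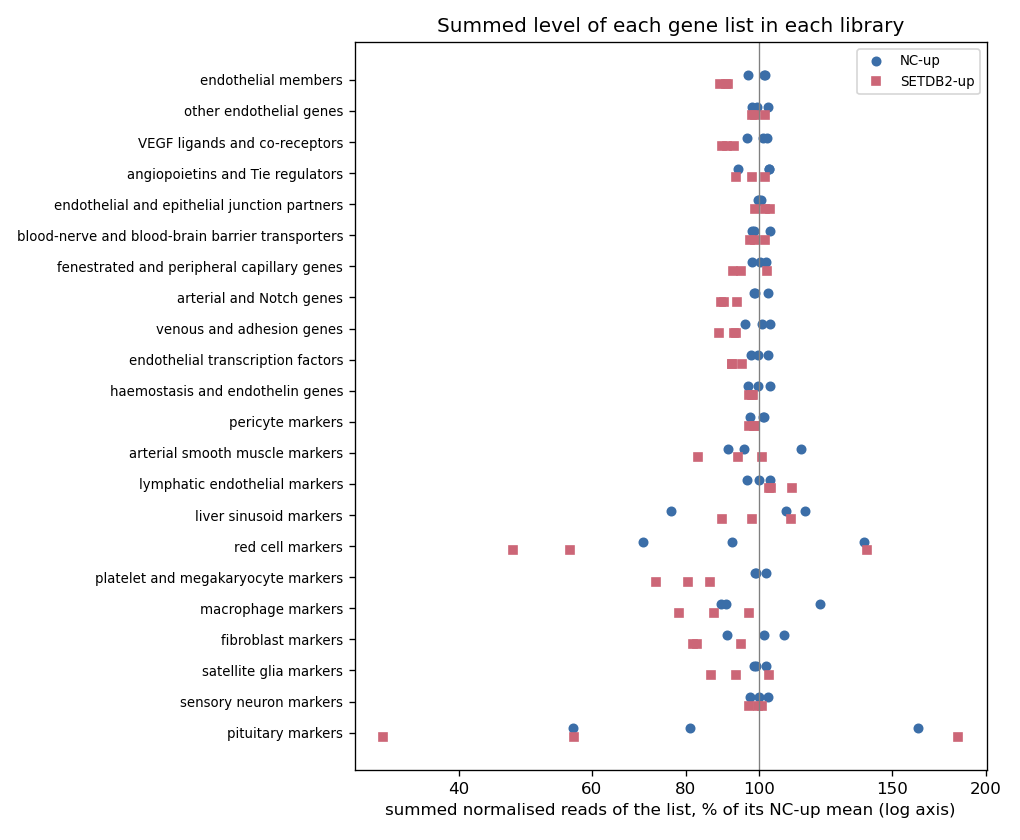
Summed normalised reads of each gene list in each library, as a percentage of the NC-up mean of that list (log axis), with NC-up as blue circles and SETDB2-up as red squares; the hepatocyte list is left out. The endothelial members lie between 4477 and 4583 summed reads in all 3 SETDB2-up libraries, below NC-up (-10.0% between means). Also below NC-up in all 3 are VEGF ligands and co-receptors (-9.08%) and arterial and Notch genes (-9.16%). The same holds for venous and adhesion genes (-8.51%), endothelial transcription factors (-6.98%) and platelet markers (-20.1%). All other lists drawn overlap between the groups, that of other endothelial genes among them.

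Cells that share vessels or blood with endothelium were measured through their own markers. Of 12 pericyte markers 1 rose, Rgs5 (log2 fold change 0.19), and 1 fell, Vtn (-0.39); their summed value was 9742 to 10155 in NC-up and 9707 to 9896 in SETDB2-up. Of 8 measured smooth muscle markers 1 fell, Myl9 (-0.27), and sums overlapped (2248 to 2807 and 2051 to 2495). Neither Rgs5, Vtn nor Myl9 passed after the GC correction. Of 5 measured lymphatic markers 0 passed in limma (0 at an unadjusted p under 0.05, 0 in edgeR, DESeq2 and limma-voom), with the defining factor Prox1 at 27.5 to 65.1 over all libraries.

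Red cell transcripts varied widely within both groups. The 6 measured red cell markers summed to 7842 to 15386 in NC-up and 5278 to 15545 in SETDB2-up, and 1, Hba-a2, fell. Its reads may be shared with its near-identical copy Hba-a1. Of 5 measured platelet markers, which bear on Vwf and Pecam1, 1 fell, Gp1bb (-0.39, SE 0.08, adjusted p = 0.00316 by limma; -0.11 after the GC correction, where the call was lost, adjusted p = 0.448), which shares its locus with Septin5. The 5 platelet markers summed to 1507 to 1555 in NC-up and 1113 to 1311 in SETDB2-up, all lower. Gp1bb made up most of each sum, at 1196, 1225 and 1163 against 804, 937 and 1004. Septin5 lies on the same strand as Gp1bb, so these values may hold Septin5 reads. The sum is therefore an uncertain measure of platelets. Ppbp (log2 fold change 0.59, adjusted p = 0.549 by limma) and Gp1ba (0.25, adjusted p = 0.499) were higher without passing. Itga2b was lower without passing (-0.26, adjusted p = 0.211). The platelet factor Pf4 was at 53.0, 51.7 and 51.0 against 40.8, 29.5 and 38.4 and did not pass (adjusted p = 0.187). The part of blood in the values of Vwf and Pecam1 was not tested.

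Liver transcripts set 2 libraries apart. The hepatocyte gene Alb had 0 reads in NC-up and 1673, 3769.5 and 11.6 normalised reads in SETDB2-up libraries 1 to 3. Of 14 hepatocyte markers listed 10 were tested, and 8 of these rose (limma-voom called 1). Alb and Serpina1d, at 0 in every NC-up library, met the filter only through SETDB2-up, so they could only rise. Apoa1, Serpina1a, Fgb and Fga did not meet the filter and were not tested. Liver has its own endothelium, so its markers were read as well: of 8 listed, 3 were measured and 0 passed in limma (0 at an unadjusted p under 0.05, 0 in the other 3 tools). Stab2, the hyaluronan scavenger receptor of liver sinusoids, had 22.2, 12.5 and 10.7 against 23.7, 44.8 and 13.4, highest in SETDB2-up library 2, which also had the most Alb. Stab1 and Dnase1l3 had groups that overlapped. SETDB2-up library 3, which had the least Alb of its group, had Cldn5 at 606 and Egfl7 at 607, below all NC-up values of each. The part of liver tissue in these falls was not tested. Without SETDB2-up libraries 1 and 2 none of the 10 members passed, among 540 genes called in all. Of 34 other named genes that passed with all libraries and could be tested without these 2, 13 passed again and 21 did not, at adjusted p from 0.106 to 0.616. Those that passed again were Vegfb, Notch1, Nr2f2, Foxc1, Klf4, Vtn, Hba-a2, Ogn, Igf2, Col1a1, Cdh19, Sox10 and Pou4f1. Those that did not were Vegfa, Cldn1, Tjp1, Jup, Cldn19, Slco1a4, Abcg2, Slc7a5, Plvap, Jag2, Sema3g, Klf2, Ednrb, Ece1, Rgs5, Myl9, Gp1bb, C1qc, Scn9a, Tshb and Setdb2, in a fit with 1 SETDB2-up library left, taken to vary like the NC-up libraries. Leaving out at least 1 single library ended the calls of Vegfa, Tjp1, Jup, Cldn19, Abcg2, Slc7a5, Plvap, Sema3g, Ednrb, Ece1, Rgs5, Vtn, Myl9, Scn9a, Tshb and Setdb2.

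Markers of other cells of the ganglion were read in the same way. Of 10 fibroblast markers 6 fell and 1 rose, led by Igf2 (-0.87 ± 0.09 SE) and Col1a1 (-0.55 ± 0.08 SE) with Ogn higher (0.52 ± 0.06 SE), and their sums overlapped between groups. Of 11 macrophage markers 1 fell, C1qc (-0.51 ± 0.11 SE), whose call was lost after the GC correction (-0.34, adjusted p = 0.0944) and without SETDB2-up libraries 1 and 2 (-0.49, adjusted p = 0.106). Of 8 satellite glia markers Cdh19 rose (0.69) and Sox10 fell (-0.46), and of 12 neuronal markers Scn9a rose (0.28) and Pou4f1 fell (-0.28). After the GC correction Cdh19 (0.46) and Pou4f1 (-0.30) passed, while Sox10 (-0.19, adjusted p = 0.054) and Scn9a (0.11, adjusted p = 0.252) did not. The Scn9a call was also lost without SETDB2-up library 1. Of 4 measured pituitary markers 1 fell, Tshb, and growth hormone (Gh) was at 855 to 2401 in NC-up and 466 to 2730 in SETDB2-up. As a check of the labels, Setdb2 itself was higher in the SETDB2-up libraries, at 113, 97.6 and 104 against NC-up values of 69.9, 58.4 and 71.5 (log2 fold change 0.65, SE 0.19, adjusted p = 0.0253 by limma). That call was lost in 8 of 20 alternatives, among them the GC corrections (0.49, adjusted p = 0.144) and leaving out any 1 of the 3 SETDB2-up libraries or NC-up library 2.

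Genes outside the list were ranked by how near their profile over the 6 libraries came to the mean profile of the members, as the mean absolute difference of centred log2 values. The 5 nearest of 13550 genes compared were Usp11 (0.00903), Trim35 (0.0118), Rrbp1 (0.0143), Map4k4 (0.0165) and Lrrc41 (0.0165). None of these 5 passed the test, with log2 fold changes from -0.14 to -0.10. By the same measure the members lay between 0.0454 (Cdh5) and 0.295 (Emcn) from their own mean. The 5 genes are the minimum over all those compared, so their distances and those of the members are not a comparison.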

How the data were processed

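Bulk mRNA libraries of mouse trigeminal ganglion were compared, 3 NC-up against 3 SETDB2-up. RNA, per the labels' protocols, was enriched for polyadenylated transcripts, made into strand-specific libraries and sequenced as read pairs. FastQC, HISAT2 and GRCm38 are named per the submitters' processing notes; the sources used here do not give the counter, its strand setting, the annotation or the size factors. The deposited values are a normalised signal: read counts which the authors had divided by 1 factor for each library, since 100% of values are whole multiples of a library's step (tolerance 0.001 read). Depth was 19334997 to 23501386 recovered reads over the listed genes, and 3 reads correspond to 0.128 to 0.155 CPM.

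From these, log2(value + 1) was tested with limma (3.58.1, R 4.3.3; mean-variance trend) over 16387 genes at 1 or more in 3 or more libraries, which all 10 members passed; an adjusted p under 0.05 counts as changed. The design named edgeR for whole counts and limma for normalised values, and limma was used. EdgeR (4.0.16), DESeq2 (1.42.0) and limma-voom on recovered reads, other filters and pseudocounts, a replicate block, left-out libraries and a loess correction (span 0.3) for transcript GC (GENCODE M21, GRCm38; 15541 genes, 94.7%) were alternatives. A linear GC correction and a sum without Cldn5 and Egfl7 were added after the data were examined. The ratios between members were not named in the design. Scripts were tested on simulated data.

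The members and the 10 vascular and 12 cell type lists were chosen with earlier results of these data known. Named genes are the members; in each vascular list up to 3 with the smallest p in each direction, and the 2 most abundant others where fewer than 2 passed; in each cell type list up to 2 in each direction; the 5 nearest profiles among genes with a mean of at least 50; and Setdb2 and Klf4 from the series title. Plat, Pf4, Ppbp, Gp1ba, Itga2b, Gh, Stab1, Stab2, Dnase1l3 and Prox1 were named beside these after their values were seen.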

Additional observations from a re-analysis of the deposited data

How the results depend on the processing

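The 2 falls among the endothelial members were called in all 10 alternative fits that changed the tool, scaling, pseudocount or filter or added the replicate block. The count was 0 under the GC correction, 0 under the GC correction with the replicate block, 0 under the linear GC correction and 0 without SETDB2-up libraries 1 and 2 together; it ranged from 1 to 2 with each library left out in turn, being 1 without SETDB2-up library 1 or 2. Fits that left out libraries had fewer samples. Across all genes the count of 2690 became 843 under the GC correction, 866 under the linear GC correction, 540 without SETDB2-up libraries 1 and 2, and 1093 (without SETDB2-up library 1) to 3333 with each library left out. Among the other named genes the pericyte marker Rgs5, higher in the main comparison, stood at -0.0033 under the linear GC correction. Of those that did not pass in the main fit, the sign turned for Ackr1 in 6 fits. It turned for Adgrf5, Palmd and Ephb4 in 3 each and for Angpt2 and Aqp1 in 2 each. Aqp1 passed in 1 alternative, the GC correction with the replicate block (adjusted p = 0.0463 by limma). Among members the sign turned for Tie1 alone, in 3 fits, where it was not called. The log2 difference of the summed level was -0.15; it was -0.12 as a mean of log2 values, -0.11 without Cldn5, -0.20 without Flt1 and -0.073 without Cldn5 and Egfl7, which were taken out because they fell, so that the remainder had to lie nearer 0. Samples share numbers across groups, and the labels do not say that these mark pairs. Their deviations correlated at 0.0383, 0.0359 and 0.0484 for the same number, and at -0.0347 to -0.00557 for different numbers. Each library thus correlated best with its own number, though weakly, and whether the libraries are paired was not settled. With the replicate block 3618 genes and 2 members passed, the calls of Cldn5 and Egfl7 among them. With the block and the GC correction together 1818 genes and 0 members passed. Depth limits Emcn most, at 87 to 167 recovered reads per library.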
